A study of Homo sapiens with 3 samples.

Results

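The 10 genes described here are factors and target genes of the Hippo pathway, measured in colorectal cancer cells that had become resistant to irinotecan, a camptothecin derivative that poisons DNA topoisomerase I. They were taken by symbol from a fixed list, and all 10 were found among the 18417 genes with a value. The 4 factors are YAP1, WWTR1 (which encodes TAZ), TEAD1 and TEAD4, and the 6 target genes are CCN1 (CYR61), CCN2 (CTGF), ANKRD1, AMOTL2, AJUBA and LATS2. The rule uses no measured value, although the list was drawn up with earlier results of these data known. Each gene has 1 probe set that names it alone.

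RNA was taken from 3 cultures, each hybridised to a single Affymetrix Human Gene 1.0 ST array. LoVo 8R+ (8R+ cells below) was the resistant line LoVo-R8 grown with 8 μM irinotecan, LoVo 8R- (8R- cells) was the same line in drug-free medium, and parental LoVo (parental cells) was the line it came from. LoVo was established from a human colorectal cancer, and LoVo-R8 is 1 resistant line selected from it by stepwise increases of irinotecan up to 8 μM. The labels of all arrays share a text on irinotecan given 24 hours before RNA was purified, and they do not say whether the parental culture received any. Which of the resistant arrays had drug rests on the sample labels alone, and 8R+ and 8R- below mean the arrays so labelled. A figure legend of the study says that it used the data of the drug-free resistant culture. However, its gene table gives fold changes for TGFB2 (5.426) and GADD45A (1.085) that equal those of the array labelled 8R+. On the array labelled 8R- these folds were 6.449 and 2.043. SESN2, which the gene table lists as down, had log2 differences from parental cells of -0.36 on the array labelled 8R+ and 0.87 on that labelled 8R-. The study's text does not settle this conflict. Genes induced by p53 after DNA damage were looked at for this reason, as a list added after the other values were seen. Of 15 measured, 14 were lower on the array labelled 8R+ than on that labelled 8R- (48.4% of all genes were), with a median log2 difference of -0.49, among them CDKN1A (-0.49) and MDM2 (-0.85). The labels were kept as given, and an exchange of the arrays was not tested.

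YAP and TAZ are coactivators that do not bind DNA themselves and act mainly through the TEAD proteins, which do. The Hippo kinases MST1 and MST2 activate LATS1 and LATS2, which phosphorylate YAP and TAZ and keep them out of the nucleus. The pathway is known in the intestine for its part in regeneration, and because YAP and TAZ are controlled largely through their phosphorylation and location, the RNA of their targets is often read as a measure of their output.

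The letters that TEAD proteins recognise were looked up in the promoter windows of these genes, since the target genes are grouped by that link. A window ran from 250 bases before to 50 bases after a start of transcription in RefSeq (GRCh38.p14). Windows were at hand for 7 of the 10 genes, with 10 start sites in all, and not for TEAD1, TEAD4 or CCN1. The TEAD motif was searched as GGAATG on both strands (CATTCC on the other strand). Its letters GGAA are also the core of ETS factor motifs. The AP-1 motif, searched because AP-1 and TEAD are known to share many sites, was TGANTCA, which reads the same on both strands. The promoters of CCN2 and ANKRD1 are shown up to the start of transcription because they held the most matches. Matches are in capitals.
CCN2, chr6:131951373-131951622, minus strand: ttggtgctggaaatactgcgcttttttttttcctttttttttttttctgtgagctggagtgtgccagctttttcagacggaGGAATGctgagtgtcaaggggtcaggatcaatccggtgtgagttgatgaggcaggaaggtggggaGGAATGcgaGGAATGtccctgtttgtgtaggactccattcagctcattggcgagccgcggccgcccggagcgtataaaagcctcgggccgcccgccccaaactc
ANKRD1, chr10:90921088-90921337, minus strand: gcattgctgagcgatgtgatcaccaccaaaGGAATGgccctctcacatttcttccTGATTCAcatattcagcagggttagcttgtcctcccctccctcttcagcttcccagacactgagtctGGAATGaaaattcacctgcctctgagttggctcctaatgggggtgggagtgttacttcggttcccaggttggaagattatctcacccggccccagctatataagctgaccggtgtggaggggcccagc

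CCN2 held 3 TEAD motifs, which began at positions -169, -104 and -95 from the start of transcription. Among all 35116 windows, 0.128% had at least 3. ANKRD1 held 2, at -220 and -128, and 1.37% of all windows had at least 2. Between them lay an AP-1 motif at -195, a motif found in 7.71% of windows. A single TEAD motif was found for 4 further genes, against 14.0% of all windows with at least 1, and the 30 bases around each are shown to set their flanks beside those above.
YAP1, chr11:102110273-102110302, plus strand: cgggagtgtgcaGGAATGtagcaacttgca
AMOTL2, chr3:134374499-134374528, minus strand: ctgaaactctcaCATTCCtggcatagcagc
AJUBA, chr14:22976884-22976913, minus strand: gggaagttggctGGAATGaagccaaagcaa
LATS2, chr13:21061560-21061589, minus strand: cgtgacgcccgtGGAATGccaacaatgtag

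The YAP1 motif began at -162, that of AMOTL2 at -69 and that of AJUBA at -59, in each of the last pair at only 1 of 2 start sites. The LATS2 motif began at position 10, inside the transcribed part. Neither window of WWTR1 held the letters GGAATG. A match is a description of letters and says nothing of whether a factor was bound in these cells.

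**Figure D1:**
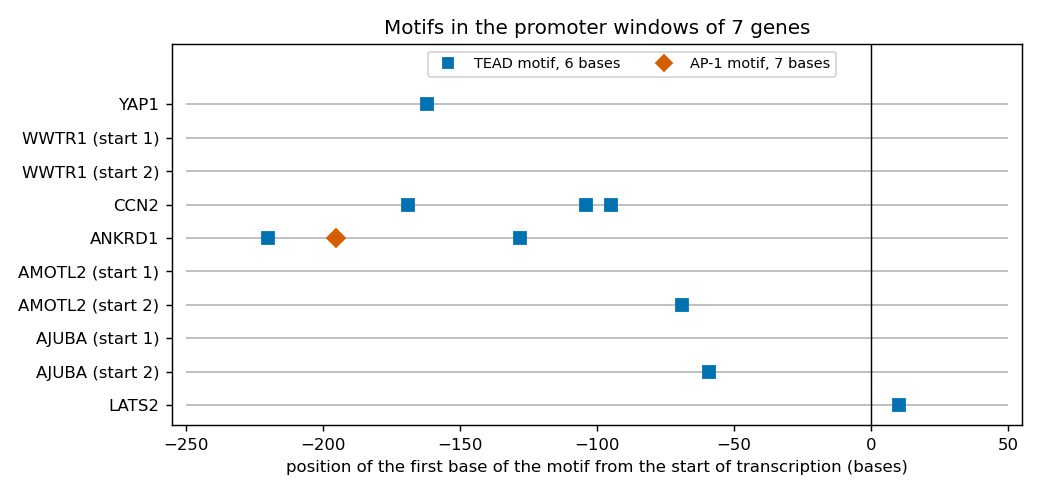
Position of each TEAD motif (blue squares) and AP-1 motif (orange diamond) in the windows of 7 genes, in bases from the start of transcription (horizontal axis), with 1 row per start site. CCN2 has 3 TEAD motifs, ANKRD1 has 2 with an AP-1 motif between them, and the windows of WWTR1 have none.

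The deposited values are log2 levels from the robust multichip average (RMA) method, which the authors fitted over the 3 arrays together. A difference is a subtraction of log2 levels, so that 1 means 2-fold, and genes at or past 2-fold were counted. With 1 array per condition there is no replicate, and no error or p-value can be given. Both LoVo-R8 arrays were set against the same parental array, so a chance deviation of that array enters both comparisons. The epithelial genes EPCAM (11.90 to 12.33) and KRT8, a keratin gene (12.73 to 13.27), had high levels on all arrays. Both were lower on the resistant arrays than in parental cells. EPCAM had log2 differences of -0.30 in 8R+ cells and -0.43 in 8R- cells, and KRT8 -0.50 and -0.54. The medians over 9 colon epithelial markers were -0.27 in 8R+ cells and -0.41 in 8R- cells. CDX1, KRT20 and VIL1 stayed at or below 7.20, under the median of genes on every array (7.49 to 7.51). The colon lectin gene LGALS4 was lower on both resistant arrays (log2 difference -2.01 in 8R+ cells and -2.27 in 8R- cells), while the cadherin gene CDH17 was higher (1.13 and 1.07), and the intestinal factor gene CDX2 had 0.91 in 8R+ cells and 0.35 in 8R- cells. All 8 fibroblast markers lay within 0.17 of parental cells, the 3 endothelial markers within 0.21 and the T cell gene CD3E within 0.15, and the leukocyte gene PTPRC had a level of 4.12 on every array. CD68, a lysosomal gene used as a macrophage marker, had log2 differences of 1.86 in 8R+ cells and 1.47 in 8R- cells.

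Most YAP and TEAD genes stayed within 2-fold of their level in parental cells. In 8R+ cells, 0 of the 10 were 2-fold or more higher and 0 lower, while 2.25% of all genes were higher and 2.30% lower. In 8R- cells, ANKRD1 alone was higher, 1 of 10 against 1.64% of all genes, and 0 were lower against 2.78%. Between the resistant arrays, none of the 10 reached 2-fold in either direction, where 0.527% of all genes were higher in 8R+ cells and 0.114% lower.

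The smaller differences leaned upward. All 10 genes were above their parental level in 8R- cells, with a median log2 difference of 0.52, where the median of all genes was 0 and 48.9% of genes were above parental cells. In 8R+ cells, 7 of the 10 were above, 2 below and CCN1 equal, with a median of 0.23, where 40.9% of all genes were above. This count depends on the scale, as CCN1 and TEAD4 lay so close to 0 that their sides turned, and it was 8 above and 2 below with median centring or loess correction and 9 above and 1 below with repeated quantile normalization. In a set of genes chosen for a shared pathway the members are not independent of each other, and these medians carry no test.

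**Figure D2:**
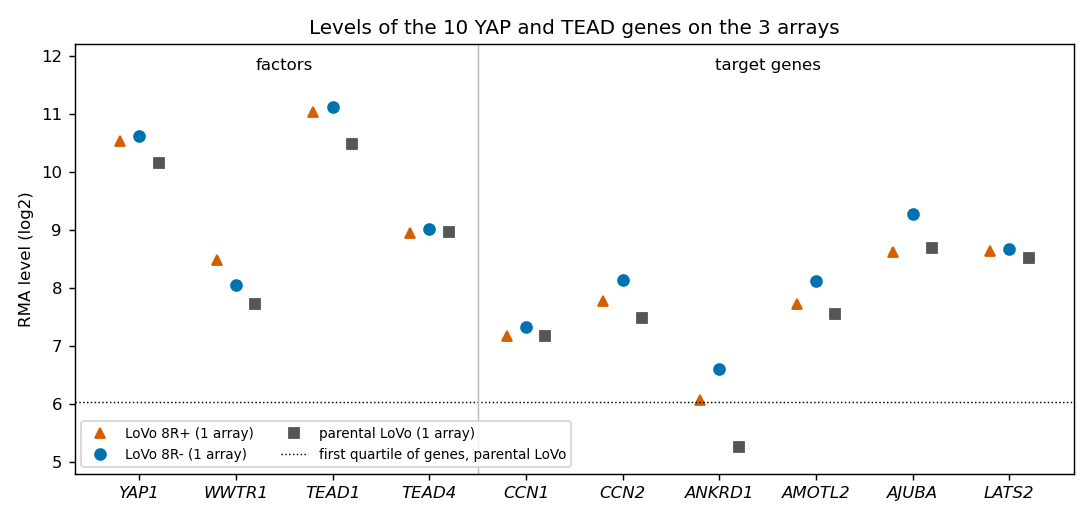
RMA level (log2, vertical axis) of the 10 genes in 8R+ cells (triangles), 8R- cells (circles) and parental cells (squares), 1 array each. Levels are to be compared within a gene, and the parental ANKRD1 level of 5.27 lies below the first quartile of genes on its array (dotted line, 6.04).

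Of the factors, YAP1, the coactivator itself, had a level of 10.54 in 8R+ cells, 10.63 in 8R- cells and 10.15 in parental cells. Both resistant cultures were thus above the parental one, by 31% in 8R+ cells and 39% in 8R- cells, and differed from each other by 0.09 on the log2 scale. TEAD1, a DNA-binding partner of YAP, had levels of 11.03 in 8R+ cells, 11.12 in 8R- cells and 10.48 in parental cells. Relative to parental cells this was 1.46-fold in 8R+ cells and 1.55-fold in 8R- cells, the same order as for YAP1. TEAD4, its paralog, had 8.95 in 8R+ cells, 9.02 in 8R- cells and 8.97 in parental cells, so that all cultures lay within 0.07 of each other.

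WWTR1, whose product TAZ is the paralog of YAP, took another order. Its level was 8.49 in 8R+ cells, 8.05 in 8R- cells and 7.72 in parental cells. It was 1.70-fold of the parental level in 8R+ cells and 1.26-fold in 8R- cells. WWTR1 was the only one of the 10 genes with a higher level in 8R+ cells than in 8R- cells, by 0.44 on the log2 scale, and 8.01% of all genes differed between those arrays by at least that much.

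Among the targets, CCN1 and CCN2 encode secreted matricellular proteins that bind integrins. The CCN2 level was 7.78 in 8R+ cells, 8.14 in 8R- cells and 7.48 in parental cells, which is 1.23-fold of the parental level in 8R+ cells and 1.59-fold in 8R- cells. The CCN1 level was 7.17 in 8R+ cells, 7.34 in 8R- cells and 7.17 in parental cells. The equal values of CCN1 in 8R+ cells and parental cells are a tie of the kind that RMA on few arrays gives, and 14.4% of all genes have one between those arrays. Both genes were highest in 8R- cells.

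ANKRD1, an ankyrin repeat protein known best from stressed heart muscle, had the largest differences among the 10 genes on both resistant arrays. Its level was 6.07 in 8R+ cells, 6.61 in 8R- cells and 5.27 in parental cells. That is 1.74-fold of the parental level in 8R+ cells and 2.53-fold in 8R- cells, and the 8R- value ranked 145 from the top among 18417 genes. The parental level was below the first quartile of genes on that array (6.04), where background limits how well a fold can be measured. Its promoter is the one above with TEAD and AP-1 motifs together.

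AMOTL2 and AJUBA encode junctional scaffolds that bind YAP or the LATS kinases. AMOTL2 had levels of 7.72 in 8R+ cells, 8.12 in 8R- cells and 7.56 in parental cells, so that it was 1.12-fold of the parental level in 8R+ cells and 1.48-fold in 8R- cells. AJUBA had 8.62 in 8R+ cells, 9.28 in 8R- cells and 8.69 in parental cells. It was thus near the parental level in 8R+ cells (log2 difference -0.06) and 1.51-fold of it in 8R- cells. LATS2, the kinase that restrains YAP and is itself a target, had 8.65 in 8R+ cells, 8.68 in 8R- cells and 8.52 in parental cells. LATS2 and CCN1 each spanned less than 0.17 over the 3 arrays, less than the other targets.

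All 6 targets were lower in 8R+ cells than in 8R- cells, with a median log2 difference of -0.38, where 48.4% of all genes were lower and the median of all genes was 0. AJUBA (-0.66) and ANKRD1 (-0.54) lay beyond the 0.53 within which 95% of genes stayed between those arrays. AMOTL2 had -0.40, CCN2 -0.37, CCN1 -0.16 and LATS2 -0.04. The factors YAP1 (-0.09), TEAD1 (-0.09) and TEAD4 (-0.07) were also lower, by less than 0.1, and WWTR1 was the exception. Relative to parental cells, the median over the targets was 0.15 in 8R+ cells and 0.58 in 8R- cells, and over the factors it was 0.47 in 8R+ cells and 0.40 in 8R- cells.

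**Figure D3:**
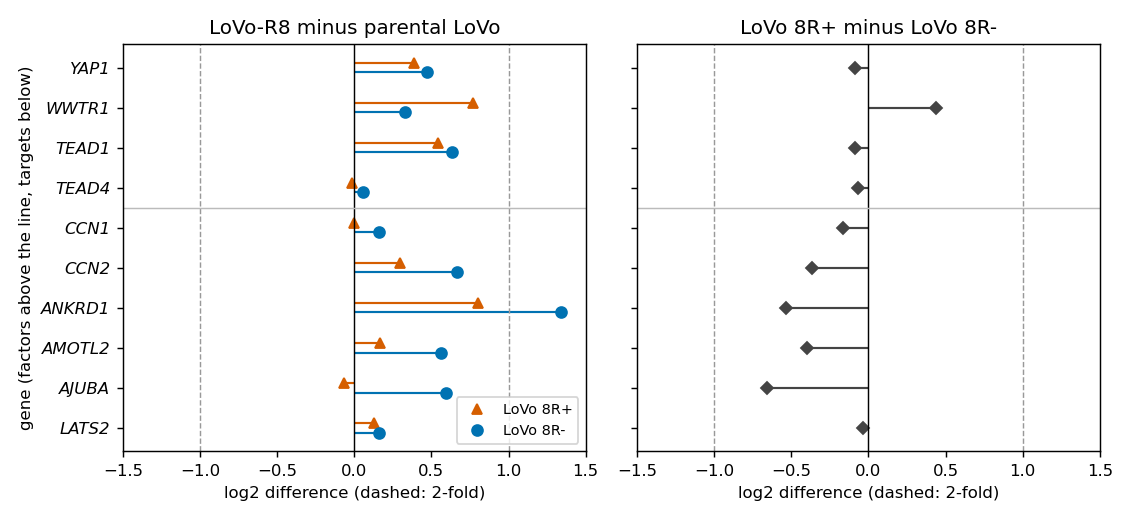
Log2 difference of each gene from parental cells (left, 8R+ cells as triangles and 8R- cells as circles) and between the resistant arrays (right, 8R+ cells minus 8R- cells), with dashed lines at 2-fold. ANKRD1 in 8R- cells (1.34) is the only value past 2-fold, and in the right panel WWTR1 (0.44) is the only gene above 0.

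Upstream of YAP, some kinase genes differed from parental cells more than the factors did. Of 10 genes of the Hippo kinases and their adaptors, 1 was at least 2-fold higher and 1 lower in 8R+ cells, and none was either in 8R- cells, with medians of 0.09 in 8R+ cells and -0.08 in 8R- cells. Of all genes, 2.25% were at least 2-fold higher and 2.30% lower in 8R+ cells, and 1.64% and 2.78% in 8R- cells. These shares apply to the lists below too. STK3, which encodes MST2, had a level of 8.99 in 8R+ cells, 8.93 in 8R- cells and 7.95 in parental cells (log2 differences 1.03 and 0.98). SAV1, the scaffold that joins MST and LATS kinases, had 11.08 in 8R+ cells, 11.06 in 8R- cells and 10.09 in parental cells (0.99 and 0.97). Both genes stood near 2-fold above the parental culture on both resistant arrays. TAOK1, a kinase that can activate MST kinases, had 8.60 in 8R+ cells, 8.80 in 8R- cells and 9.71 in parental cells (-1.11 and -0.91), and MAP4K4, which can act on LATS kinases, had -0.91 in 8R+ cells and -0.996 in 8R- cells. LATS1, the paralog of LATS2, had -0.01 on both arrays. Next to STK3, NIPAL2 had 0.60 in 8R+ cells and 0.67 in 8R- cells. Over the 10 measured genes around STK3 the medians were 0.18 and 0.19.

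Of 11 junctional and membrane regulators, none reached 2-fold on either array, and the medians were 0.00 in 8R+ cells and 0.09 in 8R- cells. PTPN14, a phosphatase that restrains YAP and is also one of its targets, came closest, with a level of 9.59 in 8R+ cells, 9.72 in 8R- cells and 8.73 in parental cells (0.86 and 0.99). The scaffold genes WWC2 (0.44 in 8R+ cells and 0.55 in 8R- cells) and PATJ (-0.34 and -0.49) had smaller values, as had NF2, which encodes the tumour suppressor merlin (-0.11 and -0.46).

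The largest difference among the kinase, regulator and cofactor genes was that of VGLL3, a Vestigial-like cofactor that binds TEAD proteins. Its level was 7.04 in 8R+ cells, 6.69 in 8R- cells and 9.30 in parental cells, with log2 differences of -2.27 and -2.62. Both resistant cultures were well below the parental one. None of the other 5 TEAD and Vestigial-like genes reached 2-fold, and VGLL4, which competes with YAP for TEAD, had 0.21 in 8R+ cells and 0.11 in 8R- cells. None of 13 paralogs of the 10 genes reached 2-fold on either array. LIMD1, of the AJUBA family, had -0.15 in 8R+ cells and -0.35 in 8R- cells, AMOTL1 0.24 and 0.34, AMOT -0.20 and -0.28, and CCN5 0.00 and 0.31.

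A wider group of 17 signature genes of YAP and TAZ, none of them among the 10, had medians of 0.00 on both arrays. In 8R+ cells, 3 were at least 2-fold higher and 1 lower, and in 8R- cells, 4 were higher and 0 lower. RBMS3, an RNA-binding protein gene, had a level of 9.00 in 8R+ cells, 8.62 in 8R- cells and 6.22 in parental cells (2.78 and 2.40). TGFB2, a growth factor gene, had 8.77 in 8R+ cells, 9.02 in 8R- cells and 6.33 in parental cells (2.44 and 2.69). NUAK2, a kinase gene of the AMPK family, had 8.60 in 8R+ cells, 8.19 in 8R- cells and 7.07 in parental cells (1.52 and 1.11). These 3 were at least 2-fold above parental cells on both resistant arrays, and PTPN14, given above, belongs to this group too. MYOF, which encodes myoferlin, had -1.16 in 8R+ cells and -0.67 in 8R- cells, and GADD45A, the further gene past 2-fold in 8R- cells, which was named after its values were seen, had 0.12 and 1.03. The other 12 genes of this group were within 2-fold on both arrays. Next to TGFB2, LYPLAL1 had 2.147 in 8R+ cells and 1.998 in 8R- cells. Of the 10 measured genes around TGFB2, 2 were at least 2-fold higher on each array, with medians of 0.17 and 0.19. Next to RBMS3, TGFBR2 had 0.79 and 1.26, and the medians there were 0.05 and 0.11. Around NUAK2 the medians were 0.00 and 0.06. Whether the rise of TGFB2 or RBMS3 was shared with the adjacent gene was not tested.

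**Figure D4:**
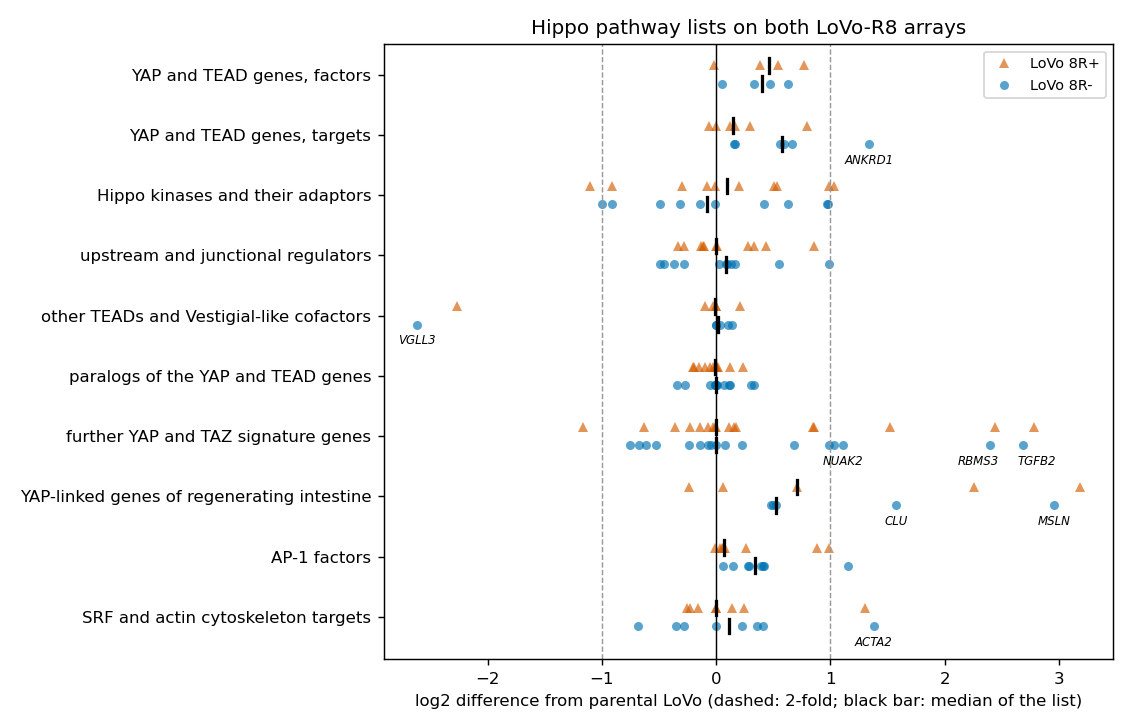
Log2 difference from parental cells (horizontal axis) of each measured gene of 10 lists, in 8R+ cells (triangles) and 8R- cells (circles), where a black bar is the median of a list and dashed lines mark 2-fold. VGLL3 (-2.27 and -2.62) lies farthest to the left, and TGFB2, RBMS3, NUAK2, CLU, MSLN and ACTA2 lie to the right of 2-fold on both arrays.

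Of 5 measured genes linked to YAP in regenerating mouse intestine, 2 were at least 2-fold higher on each array and none lower, with medians of 0.71 in 8R+ cells and 0.53 in 8R- cells. MSLN (mesothelin) had 3.18 in 8R+ cells and 2.96 in 8R- cells, and CLU, the gene for the secreted chaperone clusterin, had a level of 10.13 in 8R+ cells, 9.44 in 8R- cells and 7.87 in parental cells (2.26 and 1.57). The cytokine gene IL33 had 0.71 in 8R+ cells and 0.50 in 8R- cells, and EREG, an EGF receptor ligand gene, -0.24 and 0.53. Of 8 AP-1 factor genes, FOSL1 was at least 2-fold higher in 8R- cells and none was in 8R+ cells, and none was lower. FOSL1 had a level of 10.74 in 8R+ cells, 10.91 in 8R- cells and 9.75 in parental cells (0.99 and 1.16), JUN had 0.88 in 8R+ cells and 0.42 in 8R- cells, FOS 0.06 and 0.41, and JUNB 0.26 and 0.40. The medians of the AP-1 genes were 0.07 in 8R+ cells and 0.34 in 8R- cells.

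CCN1, CCN2 and ANKRD1 can also be induced through SRF, the serum response factor, so genes of SRF and the actin cytoskeleton were set beside them. Of 8 measured, the smooth muscle actin gene ACTA2 passed 2-fold upward on both resistant arrays (1.31 in 8R+ cells and 1.38 in 8R- cells) and none was lower, with medians of 0.00 and 0.11. TPM1 had -0.23 in 8R+ cells and -0.69 in 8R- cells, MYL9 -0.16 and 0.41 and CNN1 0.25 and 0.36.

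Over the 5 measured genes on each side of a member on its chromosome, the median log2 difference lay between -0.04 (around ANKRD1) and 0.32 (around WWTR1) in 8R+ cells, and between -0.08 (around AJUBA) and 0.21 (around CCN1) in 8R- cells, where CCN1 itself had 0.16. Next to CCN2, the gene ENPP1, which encodes a pyrophosphatase of the cell surface, had -2.56 in 8R+ cells and -3.11 in 8R- cells, on the other side of parental cells from CCN2 itself. Next to WWTR1, TM4SF4 had 1.24 in 8R+ cells and 0.34 in 8R- cells, and next to AJUBA, C14orf93 had 1.21 and 0.73. By the distance between pairs of differences from parental cells over the 3 arrays, the genes most like ANKRD1 among 9895 at or above the array median were DSC3 (0.76 in 8R+ cells and 1.30 in 8R- cells, distance 0.053), SLC44A2 (0.83 and 1.27, 0.072) and TGFBR2 (0.79 and 1.26, 0.079). ANKRD1 itself lay below that median on every array, so genes with levels as low as its own were not searched.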

How the data were processed

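The authors measured total RNA of 3 cultures (300 ng each) on Affymetrix Human Gene 1.0 ST arrays and deposited log2 levels of 33297 probe sets, made by RMA (background correction, quantile normalization and median polish). Affymetrix Expression Console 1.1 is given in the submitters' processing notes, R and Bioconductor in the methods. No value was missing, and 26.1% of probe sets have equal values on at least 2 arrays. Samples were grouped by their labels.

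A gene was represented by its brightest probe set among 19460 that name 1 gene. Probe sets with several genes (1754) or none (12083) were not used. Of 18417 genes, 18389 were matched to RefSeq (GRCh38.p14) by Entrez identifier, for gene order and promoters. Differences were counted at 2-fold, with no test. Python 3.11.15, numpy 2.4.6, pandas 2.3.3, statsmodels 0.14.6 and matplotlib 3.10.9 were used, and the calculation was tested on simulated data.

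The 10 genes and 12 further lists were chosen with earlier results of these data known. Named were the 10 genes, up to 4 genes per list with the largest difference from parental LoVo on either array, the genes on each side, and the 3 genes most like the member that differed most in LoVo 8R-. Cell type markers, LATS1, GADD45A, LYPLAL1 and NIPAL2 were named beyond this rule, after their values were seen, and a list of p53 target genes was added then. Alternatives were 1.5-fold and 3-fold thresholds, median centring, loess correction (span 0.3, 3 iterations), repeated quantile normalization, means over probe sets, filters at the 50th and 25th percentile of the higher array, and 10 neighbours on each side. The number of arrays limits the precision.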

Additional observations from a re-analysis of the deposited data

Results flagged for a closer look

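Of 107 measured members and list genes, 13 lay on opposite sides of the parental level in the resistant cultures, with 1 array each, and none of these differences was tested. The share of all genes that did so was not counted, so these 13 cannot be called many or few. Given here are the 6 that are members or among the 4 genes of a list with the largest difference, and the other 7 differed from parental cells by at most 0.37. AJUBA had a log2 difference from parental cells of -0.06 in 8R+ cells and 0.59 in 8R- cells. TEAD4 had -0.01 and 0.05, but its 8R+ value was above 0 after repeated quantile normalization (0.04) or loess correction (0.02). EREG had -0.24 in 8R+ cells and 0.53 in 8R- cells, and MYL9 -0.16 and 0.41. The fibroblast marker COL3A1 had -0.05 in 8R+ cells and 0.13 in 8R- cells, and LUM 0.12 and -0.04. AJUBA, EREG and MYL9 are those where the resistant arrays differ by more than the 0.53 within which 95% of genes stay.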

How the results depend on the processing

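Differences of the 10 genes changed little with the scale. Over the 3 comparisons and the other scalings and gene summaries, 119 of their values moved by less than 0.1 on the log2 scale and stayed on their side of 2-fold, and 1, TEAD4 in 8R- cells, moved to 0.17 with repeated quantile normalization. Part of this count was fixed in advance. Means over probe sets could not change a value, as each of these genes has 1 probe set. Median centring moves all genes of a comparison by the same small amount. Values near 0 changed side. In 8R+ cells TEAD4 had 0.04 after repeated quantile normalization and 0.02 after loess correction, against -0.01 as deposited, and CCN1 had -0.01 with loess correction and 0.01 with median centring or repeated quantile normalization. All 10 genes stayed above parental cells in 8R- cells, and all 6 targets lower in 8R+ cells than in 8R- cells, under these settings. ANKRD1 in 8R- cells lay between 1.26 and 1.34. The medians over the 10 genes and over the targets moved by less than 0.1 under each setting tried.

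The count of genes depends on the threshold. At 1.5-fold, 2 of the 10 were higher in 8R+ cells (WWTR1 and ANKRD1), against 5.79% of all genes, 4 were higher in 8R- cells (TEAD1, CCN2, ANKRD1 and AJUBA), against 4.37%, and 1 (AJUBA) was lower in 8R+ cells than in 8R- cells, against 1.08%. At 3-fold the count higher in 8R- cells was 0, against 0.483% of all genes, and with genes at or above the 50th percentile only, which leave out ANKRD1 and CCN1, it was also 0, against 2.62% of those genes. Of the 97 measured genes of the further lists, 22 passed 1.5-fold in 8R+ cells, 23 in 8R- cells and 3 between these arrays. The shares of all genes were 12.98%, 13.21% and 3.95%. At 3-fold relative to parental cells, 7 passed in 8R+ cells and 5 in 8R- cells, against 1.56% and 1.46% of all genes. The 97 genes include the cell type markers. Their lists were chosen with earlier results of these data known, so these counts cannot be read as an excess over the shares of all genes. With 10 neighbours on each side, the largest absolute median in 8R+ cells was 0.12.

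No paired analysis was possible because each condition has 1 array. No detection call was used, so how far the parental ANKRD1 level stands above background is unknown.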
